A study of Mus musculus with 4 samples.

Results

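The miR-148/miR-152 family was followed through 4 small RNA libraries of mouse dendritic cell (DC) development. Its members were taken by name from the deposited miRNA table: miR-148a-3p, miR-148b-3p, miR-152-3p and miR-148b-5p, 4 of the 1078 mature miRNAs listed there. The rule uses names alone. The study profiled a progenitor population and 3 DC states, and the design text asks how their miRNA content compares. All cells came from C57BL/6J mice, and each state was sequenced as 1 library. The hematopoietic stem cell (HSC) library was made from bone marrow cells sorted as c-Kit+ Sca1+ Lineage-, with a stated purity above 95%. Immature DC (imDC) came from marrow of mice aged 5 to 6 weeks, cultured for 6 days with GM-CSF (10 ng/mL) plus IL-4 (1 ng/mL). For mature DC (maDC) LPS (10 ng/mL) was added to these cytokines at day 4, and CD11c beads were used to select the cells at day 8. Regulatory DC (DCreg) were obtained by culturing maDC on a layer of endothelial-like stromal cells from spleen for 7 days or longer, again with selection for CD11c. DCreg therefore carry the LPS step too, and they differ from maDC in time in culture as well as in contact with stroma, which cannot be told apart. The age of 5 to 6 weeks is given for the mice of imDC, maDC and DCreg alike. The sources used here give no age for the HSC donors and do not say how many animals went into a library.

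A miRNA finds its target messages mainly by pairing of its seed, bases 2 to 8 from the 5′ end, so miRNAs with one seed share many predicted targets. Members of the miR-148/miR-152 family are known to dampen antigen presentation and cytokine output of DC stimulated through Toll-like receptors, in part by repressing Camk2a, the alpha subunit of calcium/calmodulin-dependent kinase II. Dnmt1, the maintenance DNA methyltransferase, is another well-known target.

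The mature sequences are shown because they define the family and show how its members can be told apart in sequencing reads. Capitals mark the seed, and the sequences are those of RefSeq for mouse build GRCm38.p6, where all 4 members were found.
miR-148a-3p: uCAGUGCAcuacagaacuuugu
miR-148b-3p: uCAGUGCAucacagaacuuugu
miR-152-3p: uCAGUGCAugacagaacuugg
miR-148b-5p: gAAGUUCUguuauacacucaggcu
The seed CAGUGCA was found in 3 of the 1078 mature miRNAs of the table, the 3p members. miR-148b-5p, the other arm of the miR-148b hairpin, has the seed AAGUUCU, which it shares with miR-148a-5p, so it belongs to the set by its hairpin and not by its seed. Counted from the 5′ end, miR-148b-3p differs from miR-148a-3p by C9U and U10C. miR-152-3p differs from miR-148b-3p by C10G and U20G and is 1 base shorter. A read that covers base 10 can thus be assigned to 1 member.

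The 3 hairpins lie on different chromosomes. Mature miR-148a-3p is encoded at chr6:51269829-51269850 on the minus strand, in an intergenic stretch whose nearest protein-coding gene, Nfe2l3, is 163 kb away. Mature miR-148b-3p lies at chr15:103285185-103285206 and miR-148b-5p at chr15:103285148-103285171, both on the plus strand within an intron of Copz1. Mature miR-152-3p lies at chr11:96850439-96850459 on the plus strand within an intron of Copz2. Copz1 and Copz2 encode the zeta subunits of the coatomer, the coat of vesicles that travel between Golgi and endoplasmic reticulum, and both introns lie on the strand of the miRNA. The hairpins are shown in GRCm38.p6 with both mature arms in capitals, to show the base that follows each 3p arm, which matters for the tails described below.
Mir148a: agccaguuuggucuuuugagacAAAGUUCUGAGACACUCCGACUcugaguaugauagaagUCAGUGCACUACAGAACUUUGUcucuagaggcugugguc
Mir148b: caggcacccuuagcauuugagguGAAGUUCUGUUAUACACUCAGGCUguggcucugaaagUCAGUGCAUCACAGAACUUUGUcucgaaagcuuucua
Mir152: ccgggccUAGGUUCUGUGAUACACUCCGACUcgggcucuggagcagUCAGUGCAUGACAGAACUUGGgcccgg

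Levels are given on 2 scales. The deposited values, which the table calls normalised counts, were scaled to parts per 1000000 (ppm) of their column total, which ranged from 2725948 (DCreg) to 5251069 (imDC). Independently, reads in the deposited lists of unique sequences were recounted by exact match to the mature sequences, which placed 3932627 reads in DCreg and 5198012 to 5523681 in the other 3 libraries. Intervals are exact 95% intervals (Clopper-Pearson) on recounted reads. They address counting error only and treat each read as independent. PCR copies are not independent molecules, so the intervals are too narrow even for counting error. With 1 library per state there was no replicate, no test and no p-value, and no difference below has a replicate check. In pooled cells, fewer cells with a miRNA and less of it per cell cannot be told apart. The library labels were compared with marker miRNAs: miR-451, an erythroid miRNA, stood at 9189 ppm in HSC, and miR-155-5p, induced on activation of myeloid cells, at 47.6 ppm in HSC, 2609 ppm in imDC, 1651 ppm in maDC and 141 ppm in DCreg. miR-155-5p was thus lower in maDC than in imDC, although maDC had received LPS. Erythroid markers (4 in the list) summed to 15231 ppm in HSC and to at most 19.4 ppm in the DC libraries. The marker sums did not follow the labels throughout, and the erythroid sum was highest in the library of cells sorted as Lineage-. The 4 progenitor markers summed to 2678 ppm in HSC, 608 ppm in imDC, 1045 ppm in maDC and 2763 ppm in the DCreg library, where they were highest. The 3 myeloid and pan-blood markers were highest in HSC (23530 ppm, against 10141 to 14196 ppm in the DC libraries). So were the 3 lymphoid markers (11065 ppm, against 1906 to 6570 ppm) and the 2 endothelial markers (121 ppm, against 1.47 to 8.00 ppm). The part of these differences in the results below was not tested.

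miR-148a-3p stood at 783 ppm in the HSC library, 320 ppm in imDC, 93.4 ppm in maDC and 32.6 ppm in DCreg. Its recounted reads were 3845, 1690, 346 and 108 in the same order, which is 740 (717 to 763), 321 (306 to 336), 62.6 (56.2 to 69.6) and 27.5 (22.5 to 33.2) ppm. Each library was below the one before it on both scales. Among all mature miRNAs its place by deposited value went from 72 in HSC to 176 in DCreg. Set beside it were all miRNAs with at least 100 ppm in 1 of the 2 libraries. Their median log2 ratio on deposited values was also below 0 in each successive comparison. It was -0.12 in imDC over HSC, -0.88 in maDC over imDC and -0.34 in DCreg over maDC. On recounted reads this median was 0.42, -1.28 and -0.34 in the same order.

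miR-148b-3p stood at 581 ppm in the HSC library, 597 ppm in imDC, 167 ppm in maDC and 105 ppm in DCreg. Its recounted reads were 2837, 3837, 659 and 398, or 546 (526 to 566), 728 (705 to 752), 119 (110 to 129) and 101 (91.5 to 112) ppm. HSC and imDC were the high libraries and maDC and DCreg the low ones. The order of the first pair was clear on recounted reads and nearly level on deposited values, and the intervals of maDC and DCreg overlapped.

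miR-152-3p had the other pattern, with 753 ppm in the HSC library, 857 ppm in imDC, 826 ppm in maDC and 2258 ppm in DCreg. The recounted reads were 2783, 4034, 2800 and 5546, or 535 (516 to 556), 766 (742 to 790), 507 (488 to 526) and 1410 (1373 to 1448) ppm. DCreg was the highest library on both scales. HSC and maDC were neighbours whose order differed between the scales. Their separate counting intervals overlapped, while the recounted ratio of maDC over HSC was 0.947 (0.898 to 0.998). In DCreg miR-152-3p held place 32 among all mature miRNAs, against 73 in HSC.

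miR-148b-5p, the less abundant arm, had deposited values of 64 in the HSC library, 198 in imDC, 58 in maDC and 21 in DCreg, at most 37.7 ppm. The lists held only 5, 7, 1 and 6 recounted reads of it. The deposited value per recounted read was 12.8, 28.3, 58 and 3.5, whereas the 3p members had between 0.719 and 1.32. The median over miRNAs with 100 or more reads lay between 1.21 and 1.41. The deposited values of this arm are thus not matched by reads under the rule used here, and no pattern is read from them. The source of the mismatch was not tested. By recounted reads the 5p arm made up at most 1.49% of the miR-148b hairpin (0.547 to 3.20%, DCreg), at most 0.412% for miR-148a and at most 0.108% for miR-152. miR-148a-5p had 10, 7, 1 and 0 reads and miR-152-5p had 1, 1, 1 and 6, in the order HSC, imDC, maDC and DCreg. The count of 0 in DCreg allows up to 0.763 ppm, taking 3 counts as the most that a count of 0 allows.

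**Figure D1:**
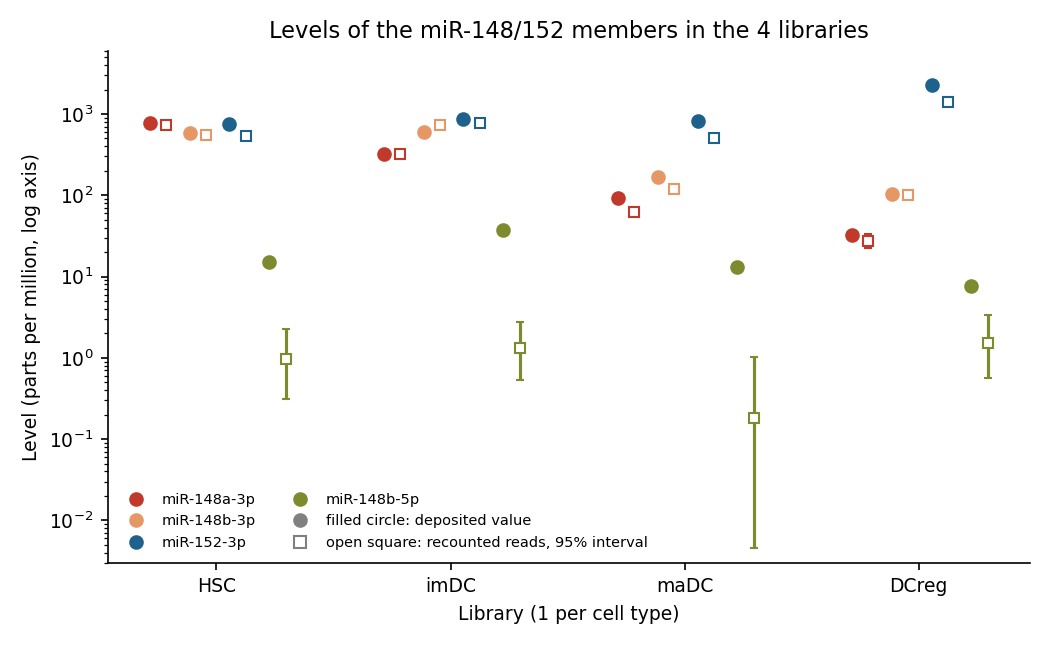
Level of each member (ppm, log axis) in the 4 libraries, with filled circles for deposited values and open squares for recounted reads with exact 95% intervals. miR-148a-3p is lower in each library than in the one before (783 to 32.6 ppm), miR-152-3p is highest in DCreg (2258 ppm), and for miR-148b-5p circles and squares lie far apart.

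The step from HSC to imDC compares the sorted progenitor with cytokine-grown DC. miR-148a-3p was 2.44-fold lower in imDC (recounted 2.31-fold, 2.18 to 2.44). miR-148b-3p was within 1.03-fold on deposited values and 1.33-fold higher (1.27 to 1.40) on recounted reads. miR-152-3p was 1.14-fold higher (recounted 1.43-fold, 1.36 to 1.50). On recounted reads the log2 ratio of miR-148b-3p (0.42) equalled the median of all miRNAs at 100 ppm, and that of miR-152-3p was 0.52. A miRNA was called different at 2-fold or more with at least 100 ppm in 1 of the 2 libraries. By this rule 1 member was lower and 0 were higher, among 187 miRNAs of which 28.3% were lower and 26.2% higher. The call of miR-148a-3p ended when reads of 16 and 17 nt were left out of the recount, where it was 1.83-fold lower.

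The step from imDC to maDC holds LPS, bead selection and harvest at day 8 in place of day 6, which cannot be told apart. miR-148a-3p was 3.43-fold lower in maDC (recounted 5.12-fold, 4.56 to 5.77). miR-148b-3p was 3.57-fold lower (recounted 6.10-fold, 5.62 to 6.64). Over 14 settings of values, scaling and read rules the fold ranged from 2.10 to 5.81 for miR-148a-3p and from 2.19 to 7.79 for miR-148b-3p, lower in all 14 for both. Here and below these settings are not independent. The main recount enters more than once and the pseudocounts hardly move the fold, so a number of settings is no measure of support. miR-152-3p differed by 1.04-fold on deposited values and was 1.51-fold lower (1.44 to 1.59) on recounted reads. Lower calls numbered 2 among the members and higher calls 0, where 45% of 160 miRNAs were lower and 9.38% higher, so lower values were common in this comparison. The median log2 ratio of all 160 was -0.88, against -1.78 for miR-148a-3p, -1.84 for miR-148b-3p and -0.05 for miR-152-3p. On recounted reads the median was -1.28, against -2.35, -2.61 and -0.59 in the same order. Scaling decided the direction of miR-152-3p, which was above 0 in 4 of the 14 settings and below 0 in 10.

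The step from maDC to DCreg follows culture on stroma. miR-152-3p was 2.74-fold higher in DCreg (recounted 2.78-fold, 2.66 to 2.91), at place 19 from the highest of 138 miRNAs. miR-148b-3p was 1.59-fold lower on deposited values and 1.18-fold lower (1.04 to 1.34) on recounted reads. miR-148a-3p was 2.86-fold lower (recounted 2.28-fold, 1.83 to 2.86) but under 100 ppm in both libraries, so it was not eligible for a call. Higher calls numbered 1 among the members and lower calls 0, where 20.3% of the 138 miRNAs were higher and 28.3% lower. miR-152-3p was at least 2-fold higher in 14 of 14 settings (2.05-fold to 2.98-fold). The direction of miR-148b-3p was lower in 13 of 14, the exception being a recount that allowed no 3′ tail.

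**Figure D2:**
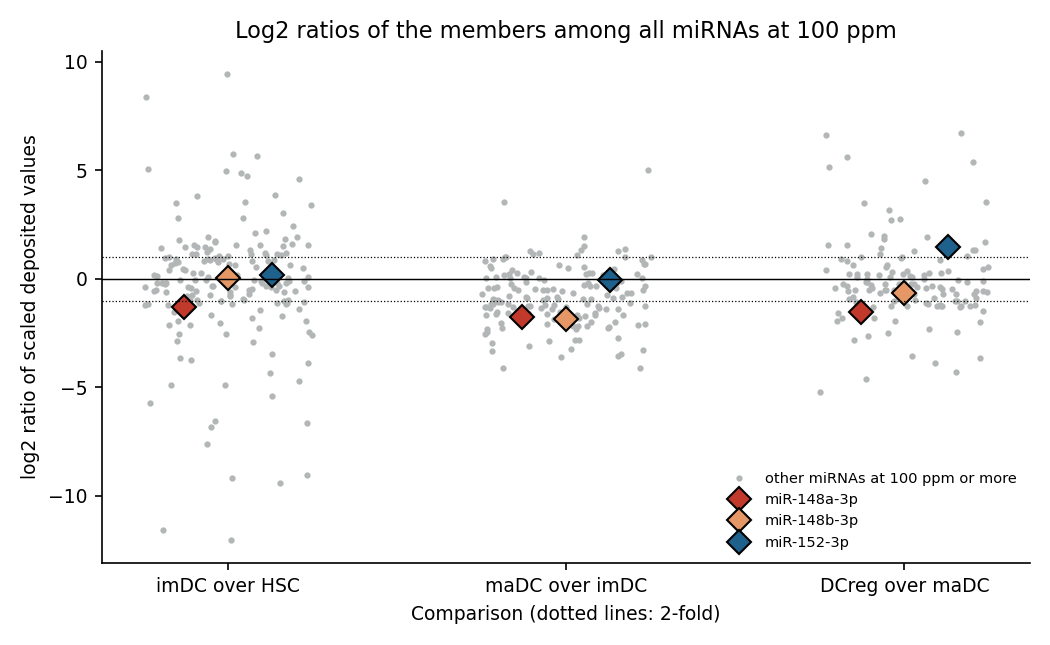
Log2 ratio of scaled deposited values for the 3 seed-sharing members (diamonds) and for all other miRNAs with at least 100 ppm in 1 of the 2 libraries (grey points), per comparison, with dotted lines at 2-fold. miR-152-3p lies near 0 in the first 2 comparisons and at 1.45 in DCreg over maDC, while miR-148a-3p, shown there although under 100 ppm in both libraries, lies at -1.51.

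Across the whole series the members diverged. In DCreg over HSC, miR-148a-3p had a log2 ratio of -4.58 (recounted 26.9-fold lower, 22.2 to 32.9). miR-148b-3p was 5.54-fold lower (recounted 5.39-fold, with 4.85 as the lower bound). miR-152-3p had a log2 ratio of 1.58 (recounted 2.63-fold higher, 2.52 to 2.76). Over the 14 settings miR-148a-3p was 15.4-fold to 28.9-fold lower, miR-148b-3p 3.58-fold to 6.70-fold lower and miR-152-3p 2.48-fold to 4.64-fold higher. In that comparison 56% of 175 miRNAs were lower and 19.4% higher. These successive and end-to-end ratios share libraries and are no independent support for each other. The ratio of one member to another within a library does not depend on how libraries are scaled. miR-152-3p over miR-148a-3p was 0.962 in the HSC library, 2.68 in imDC, 8.84 in maDC and 69.2 in DCreg. Recounted reads gave 0.724 (0.689 to 0.760), 2.39 (2.25 to 2.53), 8.09 (7.23 to 9.07) and 51.4 (42.4 to 62.7). Reads of 18 nt or more gave 0.953, 2.60, 9.07 and 74.9. The order of the 4 libraries was the same under each of these 3 counts.

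Summed over the 3 members that share the seed, the family held 2117 ppm in the HSC library, 1774 ppm in imDC, 1086 ppm in maDC and 2396 ppm in DCreg. The recounted sums were 1821 (1784 to 1858), 1815 (1778 to 1851), 689 (667 to 711) and 1539 (1500 to 1578) ppm. maDC was the lowest library on both scales, while the highest was DCreg on deposited values and HSC or imDC on recounted reads. The sum was 1.63-fold lower in maDC than in imDC on deposited values and 2.63-fold lower (2.54 to 2.74) on recounted reads. As a log2 ratio this was -0.71 and -1.40, against medians of -0.88 and -1.28 for all miRNAs tested. The sum was thus lower in maDC by about as much as miRNAs in general. It was 2.21-fold higher in DCreg than in maDC (recounted 2.23-fold, 2.14 to 2.33). There the median log2 ratio of all miRNAs tested was -0.34 on both scales.

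The make-up of the sum differed more than its size. miR-152-3p made up 35.6% of it in the HSC library, 48.3% in imDC, 76.0% in maDC and 94.3% in DCreg. By recounted reads these shares were 29.4% (28.5 to 30.3), 42.2% (41.2 to 43.2), 73.6% (72.2 to 75.0) and 91.6% (90.9 to 92.3). miR-148a-3p made up 37.0%, 18.0%, 8.60% and 1.36% in the same order, and miR-148b-3p made up 27.5%, 33.7%, 15.4% and 4.38%. On deposited values the 3 members had shares of 27.5% to 37.0% in HSC, and in DCreg nearly the whole sum was miR-152-3p. These are shares of values or reads, and how evenly library preparation captured the 3 sequences was not tested.

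**Figure D3:**
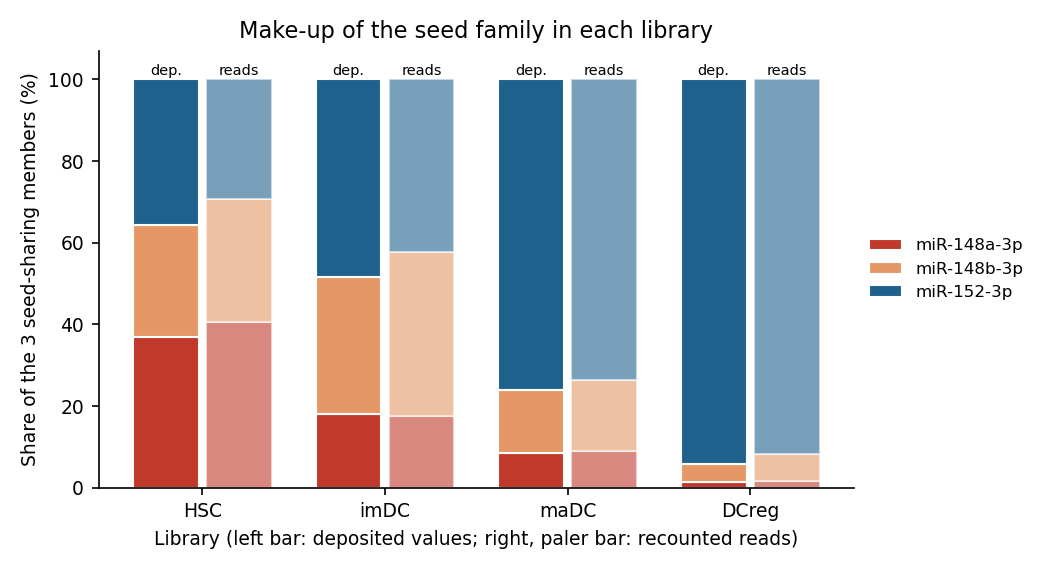
Share of each member in the sum of the 3 seed-sharing members (%), with the left bar of each library from deposited values and the right, paler bar from recounted reads. The share of miR-152-3p is larger in each library than in the one before, from 35.6% to 94.3% on deposited values.

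The assignment of reads to miR-148b-3p or miR-152-3p rests on base 10, with base 20 as a second mark in long reads. In HSC, 2873 reads of either member had C at base 10 and 2791 had G, and 3 had A and 46 had T. Of reads of 21 nt or more, 5 with C at base 10 carried the 3′ end of miR-152-3p and 3 with G carried that of miR-148b-3p. These mixed reads numbered 1 and 3 in imDC, 1 and 2 in maDC, and 2 and 7 in DCreg. Reads with matching ends numbered 1086 and 2110 in HSC, 1458 and 3182 in imDC, 530 and 2663 in maDC, and 179 and 5095 in DCreg. Shorter reads carry base 10 alone, so this check does not reach them.

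The recount took only reads that start within 2 nt of the annotated base. Among these the 5′ ends were nearly uniform, with at least 99.5% of each 3p member starting at that base in every library. Nearly all reads counted thus had the annotated seed. The 3′ ends were not uniform. Besides the full-length form, each member had a set of reads that stopped at base 16 or 17, within the stretch that the 3 members share. The commonest forms are shown with the 3′ bases not in the mature sequence in capitals, as DNA letters.
miR-148a-3p, full length: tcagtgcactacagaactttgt
miR-148a-3p, 16 nt: tcagtgcactacagaa
miR-148a-3p, A tail: tcagtgcactacagaactttgAA
miR-148b-3p, full length: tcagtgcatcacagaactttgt
miR-148b-3p, 16 nt: tcagtgcatcacagaa
miR-148b-3p, U tail: tcagtgcatcacagaactttgtT
miR-152-3p, full length: tcagtgcatgacagaacttgg
miR-152-3p, 16 nt: tcagtgcatgacagaa
miR-152-3p, U tail: tcagtgcatgacagaacttggT

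Reads of 16 and 17 nt made up 37.9% of miR-148a-3p in the HSC library, 22.1% in imDC, 12.4% in maDC and 35.2% in DCreg. They made up 38.6%, 37.1%, 14.0% and 42.0% of miR-148b-3p, and 18.2%, 15.2%, 1.89% and 5.48% of miR-152-3p. The share was lowest in maDC for every member, and miR-152-3p had the lowest share of the 3 in every library. Over all miRNAs with 100 or more reads the median share was between 0.0618% (maDC) and 0.641% (DCreg). miR-148b-3p ranked 2 of 205 in HSC, 2 of 218 in imDC, 2 of 167 in maDC and 4 of 137 in DCreg. The family supplied 14.3% of all recounted reads of this length in HSC and 3.35% in DCreg. The lists start at 16 nt although the gel step was stated to keep 18 to 30 nt, so shorter pieces would not be seen. Whether these reads were cut in the cells, arose in library preparation or come from other sites in the genome was not tested.

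**Figure D4:**
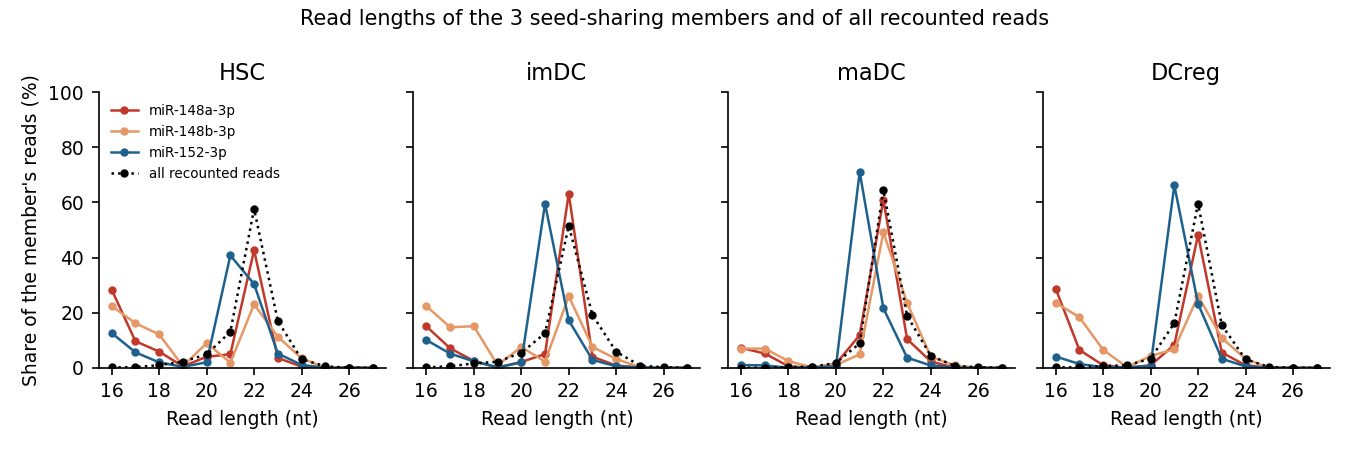
Share of the reads of each member (%) by read length in nt, per library, with all recounted reads as a dotted line. The 3 members have a second group of reads at 16 to 18 nt that is scarcely present in all recounted reads, and this group is smallest in maDC.

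Tails of added bases separated the members as well. Among reads of 20 nt or more, those ending in added T only (U in the RNA) made up 35.7% of miR-152-3p in the HSC library (33.7 to 37.7), 16.1% in imDC, 17.3% in maDC and 22.0% in DCreg (20.9 to 23.2). For miR-148b-3p they made up 26.3%, 17.2%, 25.5% and 16.2%. For miR-148a-3p they made up 0.701% (0.393 to 1.15) in HSC and 0.236% in imDC, with 0 of 301 reads in maDC and 0 of 69 in DCreg. For these counts of 0 the floor of 3 counts is 0.997% and 4.35%, and the exact intervals reach 1.22% and 5.21%. Tails of A only were the commoner kind on miR-148a-3p, at 11.8% in the HSC library, 5.97% in imDC, 16.6% in maDC and 18.8% (10.4 to 30.1) in DCreg. On the other members A tails stayed between 3.26% and 8.33%. The base after the mature 3′ end is c in the Mir148a and Mir148b hairpins and g in Mir152, so neither T nor A is encoded there. A U added to a form 1 base short of full length cannot be told apart from the full-length form of miR-148a-3p or miR-148b-3p, which both end in u. miR-148a-3p and miR-148b-3p thus differed in their tails although their last 12 bases are identical, and what sets this was not tested.

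**Figure D5:**
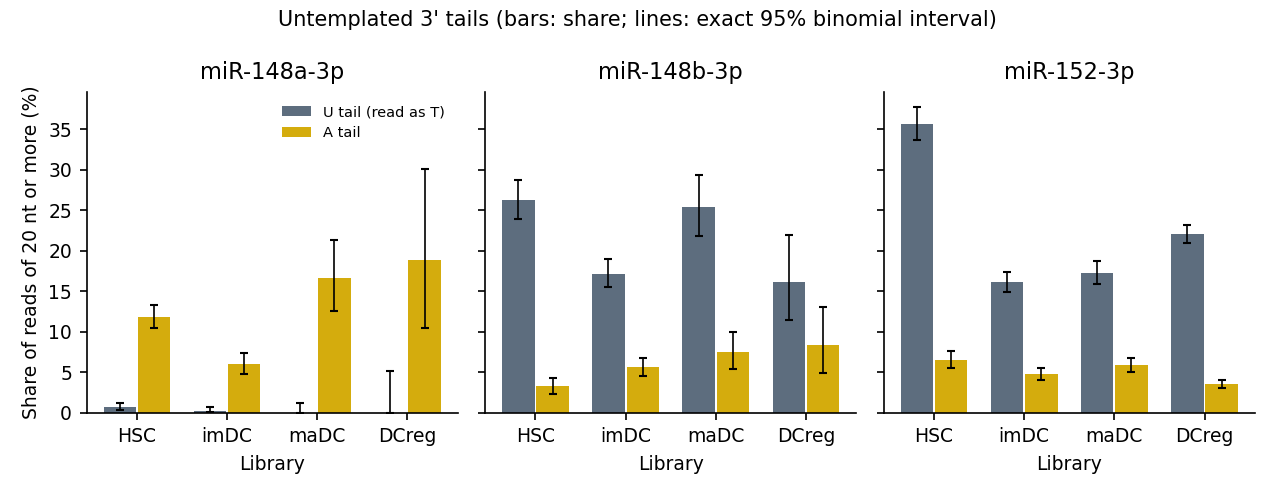
Share of reads of 20 nt or more (%) that end in added T only or added A only, per member and library, with exact 95% intervals. U tails (16.1 to 35.7%) prevail on miR-148b-3p and miR-152-3p, and A tails (5.97 to 18.8%) on miR-148a-3p.

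Likeness of pattern was measured as the Euclidean distance between log2 levels, each centred on its own mean over the 4 libraries, among 197 other miRNAs that reached 100 ppm. Closest to miR-148a-3p were miR-181c-5p (0.58), miR-1306-3p (0.72) and miR-20a-5p (0.72), with miR-148b-3p at place 25 (1.51) and miR-152-3p at place 151 (4.58). Closest to miR-148b-3p were miR-361-5p (0.31), miR-425-3p (0.33) and miR-340-5p (0.38). Closest to miR-152-3p were miR-5099 (0.56), miR-140-3p (0.58) and miR-872-3p (0.74), with miR-148b-3p at place 121 (3.28). None of the 3 seed-sharing members was among the closest patterns of another, and 4 libraries give these distances little precision.

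A list of 29 miRNAs associated with DC function or antigen presentation, which does not include the family, was set beside it. The list was chosen with earlier results of these data known, so its counts are a description and no independent support. In imDC over HSC, 16 of its 27 tested members were higher and 3 lower, with a median log2 ratio of 1.38 against -0.12 for all miRNAs tested, of which 26.2% were higher and 28.3% lower. In maDC over imDC, 2 of 27 were higher and 9 lower (median -0.66 against -0.88), where 9.38% and 45% of all were. In DCreg over maDC, 7 of 25 were higher and 8 lower (median -0.36 against -0.34), where 20.3% and 28.3% of all were. These counts include miR-511-3p, which had deposited values of 644 to 4066 but 0, 1, 0 and 3 recounted reads in the order HSC, imDC, maDC and DCreg. Without it, as added after seeing the data, 15 of 26 were higher and 3 lower in imDC over HSC (median 1.41), and 6 of 24 higher and 8 lower in DCreg over maDC (median -0.40). Among those higher in DCreg was miR-146a-5p, a brake on Toll-like receptor signalling, at 309 ppm in maDC and 1115 ppm in DCreg (3.61-fold, recounted 3.08-fold). In imDC it stood at 1105 ppm, close to its value in DCreg. The far more abundant miR-146b-5p, also in the list, went the other way. It was at 67585 ppm in maDC and 36546 ppm in DCreg (1.85-fold lower, short of a call). miR-125a-5p was at 108 and 423 ppm (3.93-fold, recounted 3.75-fold). Among those lower was miR-155-5p, which supports DC activation, at 1651 and 141 ppm (11.7-fold lower, recounted 12.7-fold).

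Because DCreg were grown on stromal cells, stromal markers were summed beside the value of miR-152-3p. The 9 stromal or mesenchymal markers summed to 1106 ppm in the HSC library, 63.8 ppm in imDC, 186 ppm in maDC and 315 ppm in DCreg, with 8, 9, 9 and 8 of them above 0. miR-218-5p was at 0 in HSC and DCreg. Of the most abundant, miR-143-3p went from 40.9 ppm in maDC to 155 ppm in DCreg, while miR-199a-3p was at 120 and 79.6 ppm. The 2 endothelial markers summed to 2.46 ppm in maDC and 1.47 ppm in DCreg. The part of stromal RNA in the level of miR-152-3p in DCreg was not tested.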

How the data were processed

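Small RNA was isolated with mirVana, gel purified to 18 to 30 nt and amplified for 12 PCR cycles, per the labels' protocols. Reads matching other RNA classes were filtered and the rest compared with miRBase release 19, per the labels' protocols. Aligner and genome build: not given in the sources used here. Scores, as whole numbers per mature miRNA and hairpin, were deposited by the authors; the file header calls them normalised counts with no method, so no count model was used. Column totals were 4226458 (HSC), 5251069 (imDC), 4475569 (maDC) and 2725948 (DCreg). Values were summed over hairpins and scaled to ppm, and ratios for calls and log2 values used a pseudocount of 0.5.

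Unique-sequence lists with read copies, deposited by the authors, were recounted (Python 3.11.15, numpy 2.4.6, scipy 1.17.1): at least 16 nt matched exactly, 5′ end within 2 nt, at most 5 unmatched 3′ bases, longest match, ties divided. This placed 82.8%, 80.4%, 84.0% and 80.2% of reads in HSC, imDC, maDC and DCreg. The recount and ratios were tested on simulated data. Sequences came from RefSeq (GRCm38.p6) and host genes from the GRCm38 annotation of GENCODE. The floor for 0 is 3 counts.

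The text names all members, the 3 miRNAs nearest in pattern to each 3p member, called miRNAs of the DC list and markers. Members and lists were chosen with earlier results of these data known. Alternatives covered the values, scaling, pseudocount, level and read rules.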

Additional observations from a re-analysis of the deposited data

How the results depend on the processing

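The family sum, as a log2 ratio, was recomputed with other values and scalings. In imDC over HSC it was -0.25 as reported, -0.00497 with recounted reads, -0.0472 with the trimmed mean of M-values (TMM) on a common HSC reference and with TMM per comparison, -0.34 with median-of-ratios, -0.00399 with all listed reads as the total and -0.12 without the 5 most abundant miRNAs of any library. In maDC over imDC it was -0.71 as reported, and -1.40, -0.18, -0.16, -0.00384, -0.94 and -0.56 in the same order, so its size there depended on the scaling. In DCreg over maDC it was 1.14 as reported, 0.72 with TMM on the HSC reference, 0.85 with all listed reads and 1.26 without the most abundant miRNAs, and stayed within counting error with recounted reads, median-of-ratios and TMM per comparison. TMM per comparison was added after the values on the HSC reference were seen. Those 2 versions moved the median of all miRNAs in DCreg over maDC by 0.01 and -0.42. Recounted ratios of single members, the ratio of miR-152-3p to miR-148a-3p by read rule and the end-to-end comparisons were also added after seeing the data.

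In 14 settings each, miR-148a-3p was lower in imDC than HSC, in maDC than imDC and in DCreg than maDC in all 14, and miR-152-3p was higher in DCreg than maDC in all 14. The pseudocount changed no direction or call of the family sum. At a level of 10 ppm, miR-148b-5p, whose values reads did not match, counted as 1 higher member in imDC over HSC (26.7% of 367 miRNAs higher) and brought the lower members in maDC over imDC to 3 (46.0% of 328 lower). At that level miR-148a-3p became 1 lower member in DCreg over maDC (27.9% of 305 lower). With TMM on the HSC reference, miR-148b-3p was 1 lower member in DCreg over maDC. In maDC over imDC the higher calls over all miRNAs were 15 as reported, 26 with TMM, 30 with median-of-ratios and 2 with recounted reads, and the lower calls were 72, 47, 37 and 78. With 108 recounted reads, miR-148a-3p in DCreg was the member least precisely counted after miR-148b-5p. No paired analysis was possible because each state has 1 library.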
